A study of Mus musculus with 6 samples.

Results

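The PDLIM and FHL proteins carry LIM domains, zinc-binding folds that dock onto other proteins, and many of them sit on actin filaments. The group described here holds 9 genes, Pdlim1, Pdlim2, Pdlim3, Pdlim4, Pdlim5, Pdlim7, Fhl1, Fhl2 and Fhl3, of the 35275 gene identifiers in the deposited table. They were chosen by name and by their measured levels in the 6 libraries, because members of these 2 families shifted in opposite directions between K10-spastin and control. Their differences between the groups are therefore a description, without a test, and the counts below are not support for a family effect.

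The study measured messenger RNA in keratinocytes from mouse back skin after induction of spastin, an enzyme that cuts microtubules, in differentiated cells. In K10-spastin embryos (CD1 IGS strain, E16.5, the day of gestation; genotype K10rtTA;TREspastin), the rtTA activator, which needs doxycycline, is driven by the promoter of keratin 10, a gene of suprabasal keratinocytes. The dams, described as K10-rtTA;TRE-H2B-GFP;TRE-Spastin, received doxycycline from E14.5, and cells with the H2B-GFP nuclear marker were sorted after the epidermis had been separated from the dermis. The control embryos had the same strain, age and collection and are labelled only as control. The transgenes of these embryos were not given in the sources used here, and an effect of spastin and one of the other transgenes cannot be told apart. Each group had 3 libraries from independent RNA samples. How many embryos a library holds was not given in the sources used here, and the p-values below measure the spread between these samples.

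PDLIM proteins combine a PDZ domain, which in several members binds alpha-actinin, the crosslinker of actin filaments, with a LIM domain or a row of them. FHL proteins consist almost entirely of LIM domains and act both at the actin cytoskeleton and in the nucleus as partners of transcription factors. Both families are best known from muscle, where they are found at the sarcomere, and in other cells they are found on stress fibres and at focal adhesions. Serum response factor (SRF) and its actin-sensing cofactors of the MRTF family control many cytoskeletal genes through a DNA element called the CArG box, and Fhl2 is a known SRF target in mouse.

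The stretches before the annotated starts of 4 members are shown because these genes passed the call described below, higher in K10-spastin for Fhl2 and Pdlim7 and lower for Pdlim4 and Fhl1. They come from RefSeq promoter windows on GRCm38.p6, printed 5′ to 3′ on the strand of the gene. All but the first line run up to the last base before the start. Capitals mark a CArG box or a GC box, the GGGCGG element bound by SP factors, on either strand. The first Fhl2 line, of 30 bases, runs from -106 to -77 relative to the upstream of 2 starts. It lies in an exon of another annotated transcript, and the second Fhl2 line belongs to the downstream start. The coordinates are chr1:43196838-43196867 (minus strand) and chr1:43163962-43164211 (minus strand) for Fhl2, chr13:55513447-55513603 (minus strand) for Pdlim7, chr11:54069018-54069267 (minus strand) for Pdlim4 and chrX:56779524-56779682 (plus strand) for Fhl1.
Fhl2 upstream start: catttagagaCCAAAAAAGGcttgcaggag
Fhl2 downstream start: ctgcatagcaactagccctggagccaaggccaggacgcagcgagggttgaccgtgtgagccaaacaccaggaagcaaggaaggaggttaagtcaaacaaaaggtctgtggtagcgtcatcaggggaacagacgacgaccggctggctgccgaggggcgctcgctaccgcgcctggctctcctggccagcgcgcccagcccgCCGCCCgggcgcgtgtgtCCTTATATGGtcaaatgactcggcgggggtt
Pdlim7: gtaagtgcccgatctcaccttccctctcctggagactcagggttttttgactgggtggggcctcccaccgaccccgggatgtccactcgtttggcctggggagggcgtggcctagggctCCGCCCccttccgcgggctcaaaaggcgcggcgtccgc
Pdlim4: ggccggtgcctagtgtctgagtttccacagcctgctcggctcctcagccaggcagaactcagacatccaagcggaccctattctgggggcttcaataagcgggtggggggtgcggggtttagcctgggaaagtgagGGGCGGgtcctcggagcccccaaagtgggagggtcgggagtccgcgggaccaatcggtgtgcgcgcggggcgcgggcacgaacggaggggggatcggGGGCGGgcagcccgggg
Fhl1: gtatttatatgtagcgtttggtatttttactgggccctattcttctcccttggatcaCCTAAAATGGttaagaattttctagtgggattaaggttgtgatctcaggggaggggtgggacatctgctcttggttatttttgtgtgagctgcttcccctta

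Windows of 300 bases, 250 before to 50 after a start, were found for 8 of the 9 members, 11 windows in all, with none for Pdlim2. A CArG box was present in 3 of these 11 windows, both of Fhl2 and the first of Fhl1, against 1.64% of the 32544 distinct windows of all genes. Its first base lay 96 bases before the upstream and 31 before the downstream start of Fhl2, and 102 before the start of Fhl1. The 2 genes with a CArG box thus stood on opposite sides, Fhl2 higher and Fhl1 lower in K10-spastin. A GC box was present in 7 windows of 7 members, against 35.9% of all windows. The AP-1 element TGANTCA was in none of the 11, against 7.79% of all windows, and the TEAD element GGAATG was in 1, that of Pdlim3, against 14.6%. Both strands were searched and overlapping matches of a motif were kept. A match is not evidence of a bound site, and the table has 1 value per gene, so the use of each start was not resolved.

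FPKM, which scales fragments by gene length and library depth, was deposited for each library. Depth, read from the steps between low values, was 17.3, 19.6 and 17.4 M fragments (M, mega) in K10-spastin 1 to 3, against 22.5, 16.0 and 16.6 M in control 1 to 3. At these depths 3 fragments in a gene of 1 kb were worth 0.134 to 0.187 FPKM. Spast, the gene of the induced enzyme, had 1431, 639 and 213 FPKM in K10-spastin 1 to 3, against 21.2, 24.0 and 21.4 FPKM in control 1 to 3. Summed over marker genes, suprabasal keratinocyte markers had 31269 to 46232 FPKM in K10-spastin libraries and 51688 to 67976 FPKM in control libraries, so the labelled cell type was present in every library. Most of this sum was Krt1 and Krt10, with means of 23120 and 27671 FPKM in control. Of the 6 markers, only Krt10 was called lower by the limma fit described below (log2 change -0.81 ± 0.20 SE, limma adjusted p = 0.0438). Krt1 (-0.69) and Dsg1a (-0.34) had negative and Krtdap (0.21), Sbsn (0.75) and Dsc1 (0.61) positive log2 differences without being called. Basal markers summed to 2495 to 4723 FPKM in K10-spastin and 4083 to 7171 FPKM in control, and granular-layer markers to 3192 to 14930 FPKM in K10-spastin and 1310 to 5322 FPKM in control. In bulk samples, fewer cells of a type and less RNA per cell cannot be told apart.

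Of the 9 members, 8 reached the mean of 1 FPKM over the 6 libraries that was needed for the fit, and Pdlim3 did not. A gene was called when limma on log2(FPKM + 1) gave an adjusted p under 0.05. Fhl2 and Pdlim7 were called higher, against 5.14% of the 11071 genes tested, and Pdlim4 and Fhl1 were called lower, against 5.90%. Fhl3 was also higher in every K10-spastin library than in every control library without being called. That made 3 members without overlap on the higher side, against 15.6% of all genes, and 2 on the lower side, against 24.8%. The median change of the 8 members was 0.21 on the log2 scale and that of all tested genes was -0.09. When any 1 of the 3 control libraries was left out, none of the members was called, without K10-spastin 2 Pdlim7 was no longer called, and Fhl1 was not called without any 1 of the K10-spastin libraries. Since the members were chosen on this contrast, nothing is read from these counts.

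Fhl2 (ENSMUSG00000008136, chromosome 1), a coactivator and corepressor of several transcription factors that is also found at focal adhesions, had 86.9, 65.8 and 27.2 FPKM in K10-spastin 1 to 3, against 9.02, 8.62 and 12.96 FPKM in control 1 to 3. Every K10-spastin library lay above every control library, and K10-spastin 3 was the lowest of its group. The means were 59.9 ± 30.3 FPKM in K10-spastin and 10.2 ± 2.40 FPKM in control (SD, n = 3 each), a ratio of 5.88 and a difference of 2.31 ± 0.41 (SE) on the log2(FPKM + 1) scale.

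Pdlim7 (ENSMUSG00000021493, chromosome 13), known as Enigma, binds beta-tropomyosin at actin filaments through its PDZ domain. It had 94.996, 66.5 and 30.9 FPKM in K10-spastin 1 to 3, against 15.2, 10.98 and 17.7 FPKM in control 1 to 3. The groups did not overlap, and the K10-spastin libraries stood in the same order as for Fhl2 and Spast, library 1 highest and library 3 lowest. The means were 64.1 ± 32.1 FPKM in K10-spastin and 14.6 ± 3.39 FPKM in control (SD, n = 3 each), a ratio of 4.38 and a log2 difference of 1.94 ± 0.39 (SE).

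Fhl3 (ENSMUSG00000032643, chromosome 4), which is most abundant in skeletal muscle, had lower levels, 7.49, 10.6 and 2.43 FPKM in K10-spastin 1 to 3, against 1.17, 1.29 and 1.40 FPKM in control 1 to 3. The K10-spastin values were all above the control values but spread widely, while the control values were nearly equal. The means were 6.85 ± 4.13 FPKM in K10-spastin and 1.29 ± 0.114 FPKM in control (SD, n = 3 each), and the log2 difference was 1.61 ± 0.43 (SE). A stretch of 360 bases of Fhl3 is 98.3% identical to the predicted gene Gm13898, so reads may be split between them. Gm13898 was listed at 0 in all libraries except control 3, with 0.495 FPKM.

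Of the 5 granular-layer markers tested, Klk5 and Cdsn rose by limma (log2 change 3.60 ± 0.61 SE and 3.18 ± 0.63 SE), while Lor (0.69), Flg2 (1.19) and Casp14 (0.09) had positive log2 differences without being called. Their sum was 3331, 3192 and 14930 FPKM in K10-spastin 1 to 3, against 1310, 5322 and 4732 FPKM in control 1 to 3. Within K10-spastin it was highest in library 3, where Fhl2, Pdlim7 and Fhl3 were lowest. Most of the sum there was Lor, with 2772, 3007 and 14562 FPKM in K10-spastin 1 to 3. The markers differed in their order: Lor, Flg2 and Cdsn were highest in K10-spastin 3. Klk5 (322, 65.2 and 102 FPKM) and Casp14 (170, 62.3 and 96.3 FPKM) were highest in K10-spastin 1, as Fhl2 and Pdlim7 were. The part of granular cells in the higher levels of Fhl2, Pdlim7 and Fhl3 was not tested.

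Pdlim4 (ENSMUSG00000020388, chromosome 11), also called RIL, binds alpha-actinin and is found on actin stress fibres. It had 17.2, 3.18 and 15.0 FPKM in K10-spastin 1 to 3, against 106, 92.6 and 89.6 FPKM in control 1 to 3. The control libraries lay close together and far above all K10-spastin libraries, of which library 2 was the lowest. The means were 11.8 ± 7.53 FPKM in K10-spastin and 96.1 ± 8.84 FPKM in control (SD, n = 3 each), so the level was 8.16-fold lower in K10-spastin, with a log2 difference of -3.18 ± 0.52 (SE). Of the 6 basal markers, 1 was called by limma, Krt15, which fell (log2 change -3.05 ± 0.62 SE). Krt5 (-0.78), Col17a1 (-2.25) and Itga6 (-0.997) had negative and Krt14 (0.07) and Itgb4 (0.38) positive log2 differences without being called, and the sums given above overlapped. The part of basal cells in the lower level of Pdlim4 was not tested.

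Fhl1 (ENSMUSG00000023092, chromosome X), a sarcomere-associated protein of striated muscle in which mutations cause myopathies in humans, was the scarcest of the tested members in K10-spastin. It had 0.0792, 0.667 and 0.554 FPKM in K10-spastin 1 to 3, against 1.80, 1.76 and 3.36 FPKM in control 1 to 3. The groups did not overlap, although 3 fragments in this gene are worth 0.036 to 0.0504 FPKM, so K10-spastin 1 rests on a few fragments. The means were 0.434 ± 0.312 FPKM in K10-spastin and 2.31 ± 0.913 FPKM in control (SD, n = 3 each), a 5.32-fold lower level in K10-spastin and a log2 difference of -1.20 ± 0.28 (SE).

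Fibroblast markers were also lower beside Fhl1. Their sum was 0.791, 3.03 and 2.25 FPKM in K10-spastin 1 to 3, against 6.44, 22.5 and 42.3 FPKM in control 1 to 3, and 1 of the 4 tested, Dcn, fell (log2 change -1.88 ± 0.46 SE, limma adjusted p = 0.0456). Col1a1 (-2.56), Col1a2 (-1.39) and Col3a1 (-1.93) also had negative log2 differences, without being called. At an unadjusted limma p under 0.05, all 4 were lower, against 18.7% of all genes tested. None of the 6 markers was at 0 throughout a group, and control 3 was highest both for the marker sum and for Fhl1. Skeletal muscle markers summed to 11.3 to 16.1 FPKM in K10-spastin and 12.4 to 22.1 FPKM in control, and smooth muscle and pericyte markers to 1.70 to 3.07 FPKM in K10-spastin and 1.41 to 2.72 FPKM in control. The part of such cells in the lower level of Fhl1 was not tested.

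The other members did not separate the groups. Pdlim5 (ENSMUSG00000028273, chromosome 3), known as ENH, links protein kinase C to the cytoskeleton and had 56.0, 54.9 and 48.1 FPKM in K10-spastin 1 to 3, against 59.6, 57.7 and 53.5 FPKM in control 1 to 3. The log2 difference was -0.10 ± 0.12 (SE), and Pdlim5 had the smallest spread of the tested members within K10-spastin, with a highest value 1.16 times the lowest. Pdlim1 (ENSMUSG00000055044, chromosome 19), known as CLP36, binds alpha-actinin on stress fibres and had 21.5, 24.7 and 13.3 FPKM in K10-spastin 1 to 3, against 19.9, 18.1 and 25.4 FPKM in control 1 to 3, a log2 difference of -0.12 ± 0.25 (SE).

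Pdlim2 (ENSMUSG00000022090, chromosome 14), which in mouse immune cells promotes the degradation of the NF-kappaB subunit RelA, varied most between the control libraries. It had 89.1, 20.2 and 65.2 FPKM in K10-spastin 1 to 3, against 20.97, 58.6 and 31.1 FPKM in control 1 to 3. The highest value was 4.41 times the lowest in K10-spastin and 2.79 times in control, and the log2 difference of 0.53 ± 0.57 (SE) was smaller than its error. Pdlim3 (ENSMUSG00000031636, chromosome 8), a Z-disc protein of muscle, was listed at 0 in every K10-spastin library and, apart from 0.0282 FPKM in control 1, at 0 in the controls, a level within the 0.026 to 0.0364 FPKM that 3 fragments are worth here.

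**Figure D1:**
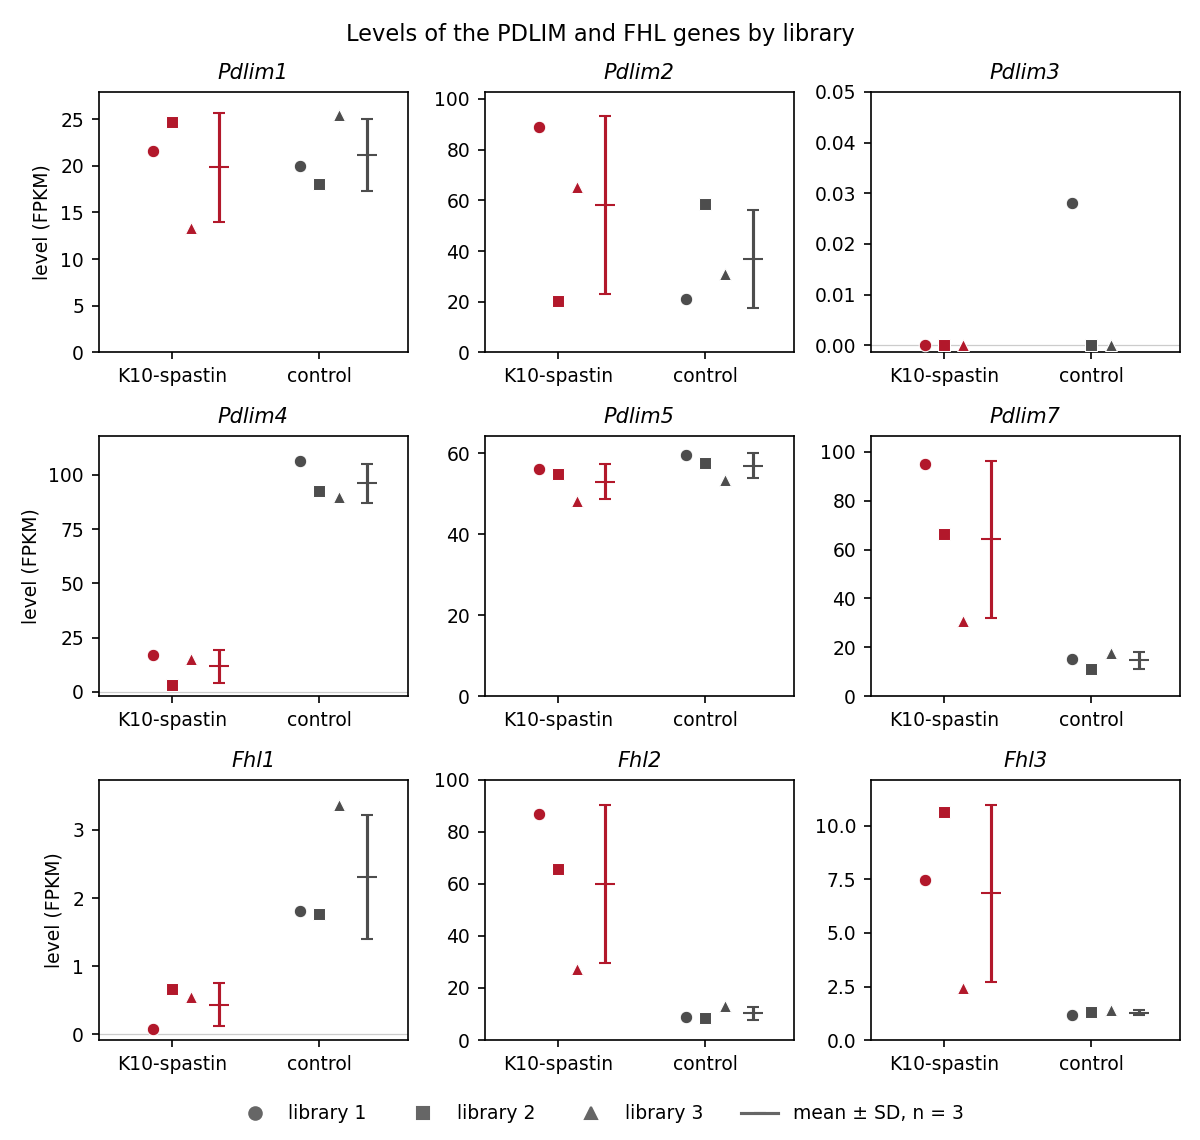
Level of each PDLIM and FHL gene in FPKM, K10-spastin libraries in red and control libraries in grey, with the mean ± SD of 3 libraries beside the points except for Pdlim3. Fhl2, Pdlim7 and Fhl3 are higher in all K10-spastin libraries, Pdlim4 and Fhl1 are lower in all of them, and Pdlim1, Pdlim2 and Pdlim5 overlap.

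The spread within the groups was uneven. On the log2 scale the SD of Pdlim4 was 1.17 in K10-spastin and 0.13 in control, that of Fhl3 0.91 in K10-spastin and 0.07 in control, that of Fhl2 0.86 in K10-spastin and 0.29 in control, and that of Pdlim7 0.81 in K10-spastin and 0.33 in control. Pdlim2 had 1.1 in K10-spastin and 0.73 in control, and Fhl1 0.34 in K10-spastin and 0.38 in control on this scale, which shrinks low levels. In FPKM, the highest K10-spastin value was 8.42 times the lowest for Fhl1, 5.39 times for Pdlim4, 4.41 times for Pdlim2, 4.37 times for Fhl3, 3.20 times for Fhl2 and 3.07 times for Pdlim7. The K10-spastin means of these 6 members thus describe libraries that differ several-fold among themselves.

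**Figure D2:**
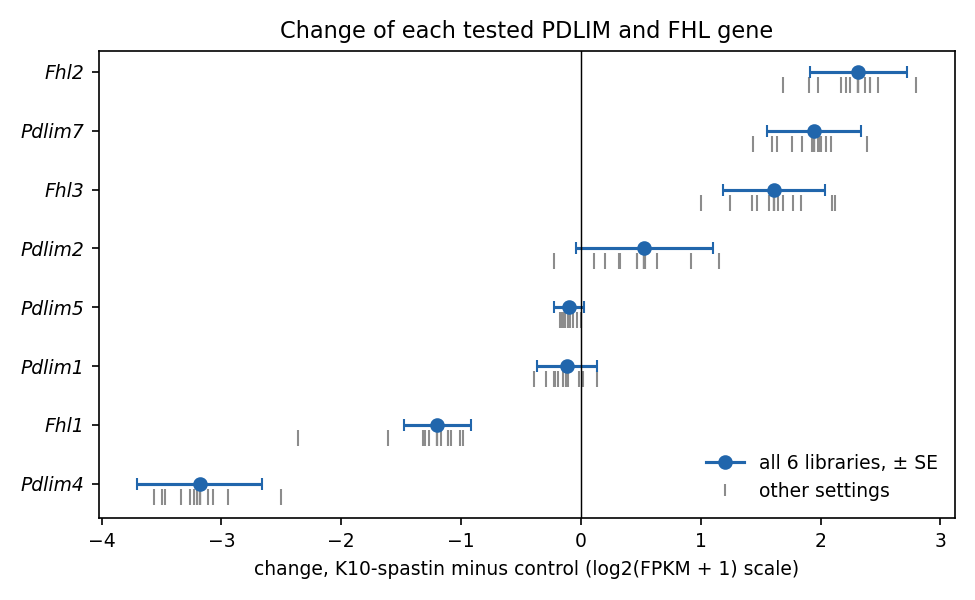
Difference between K10-spastin and control for the 8 tested members on the log2(FPKM + 1) scale, 3 libraries in each group. Blue points carry the limma SE, and grey ticks give the value under the 17 other settings. Fhl1 and Fhl3 have 16 ticks, since the filter at a mean of 5 FPKM leaves them out. Pdlim4 stays between -3.57 and -2.51 and Fhl2 between 1.69 and 2.79, while Pdlim1, Pdlim2 and Pdlim5 reach both sides of 0.

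The order of levels per length changed with the shifts. In K10-spastin, Pdlim7 (mean 64.1 FPKM), Fhl2 (59.9 FPKM), Pdlim2 (58.1 FPKM) and Pdlim5 (53.0 FPKM) came first with overlapping ranges, followed by Pdlim1 (19.8 FPKM), Pdlim4 (11.8 FPKM), Fhl3 (6.85 FPKM) and Fhl1 (0.434 FPKM). Pdlim1 overlapped Pdlim4 and Pdlim4 overlapped Fhl3, while Pdlim5 and Pdlim1, and Fhl3 and Fhl1, did not overlap. Pdlim2 overlapped Pdlim1 as well, with 20.2 FPKM in K10-spastin 2, where Pdlim1 had 24.7 FPKM. In control, Pdlim4 (96.1 FPKM) stood above every other member, followed by Pdlim5 (56.9 FPKM), Pdlim2 (36.9 FPKM), Pdlim1 (21.2 FPKM), Pdlim7 (14.6 FPKM), Fhl2 (10.2 FPKM), Fhl1 (2.31 FPKM) and Fhl3 (1.29 FPKM). There the neighbours Pdlim5 and Pdlim2, Pdlim2 and Pdlim1, and Pdlim7 and Fhl2 overlapped, and the other neighbours did not.

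The PDLIM family differed between the groups in its make-up, while its sums overlapped. The 6 PDLIM genes together had 279, 169 and 173 FPKM in K10-spastin 1 to 3, against 222, 238 and 217 FPKM in control 1 to 3. Of these sums, Pdlim4 made up 6.16%, 1.88% and 8.70% in K10-spastin 1 to 3, against 47.8%, 38.9% and 41.2% in control 1 to 3. Pdlim7 made up 34.1%, 39.2% and 17.9% in K10-spastin, against 6.87%, 4.61% and 8.13% in control. The ratio of Pdlim7 to Pdlim4 was 5.53, 20.9 and 2.06 in K10-spastin 1 to 3, against 0.144, 0.119 and 0.197 in control 1 to 3, so Pdlim7 was above Pdlim4 in every K10-spastin library and below it in every control library.

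For the FHL family the sum itself differed, with 94.4, 77.1 and 30.2 FPKM in K10-spastin 1 to 3, against 12.0, 11.7 and 17.7 FPKM in control 1 to 3. Fhl2 held 92.0%, 85.3% and 90.1% of it in K10-spastin and 75.2%, 73.8% and 73.1% in control. Fhl1 held 0.0839%, 0.866% and 1.84% in K10-spastin and 15.0%, 15.1% and 19.0% in control, while Fhl3 overlapped between the groups, at 7.93% to 13.8% in K10-spastin and 7.88% to 11.1% in control. Fhl2 was thus the main FHL transcript in all 6 libraries.

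**Figure D3:**
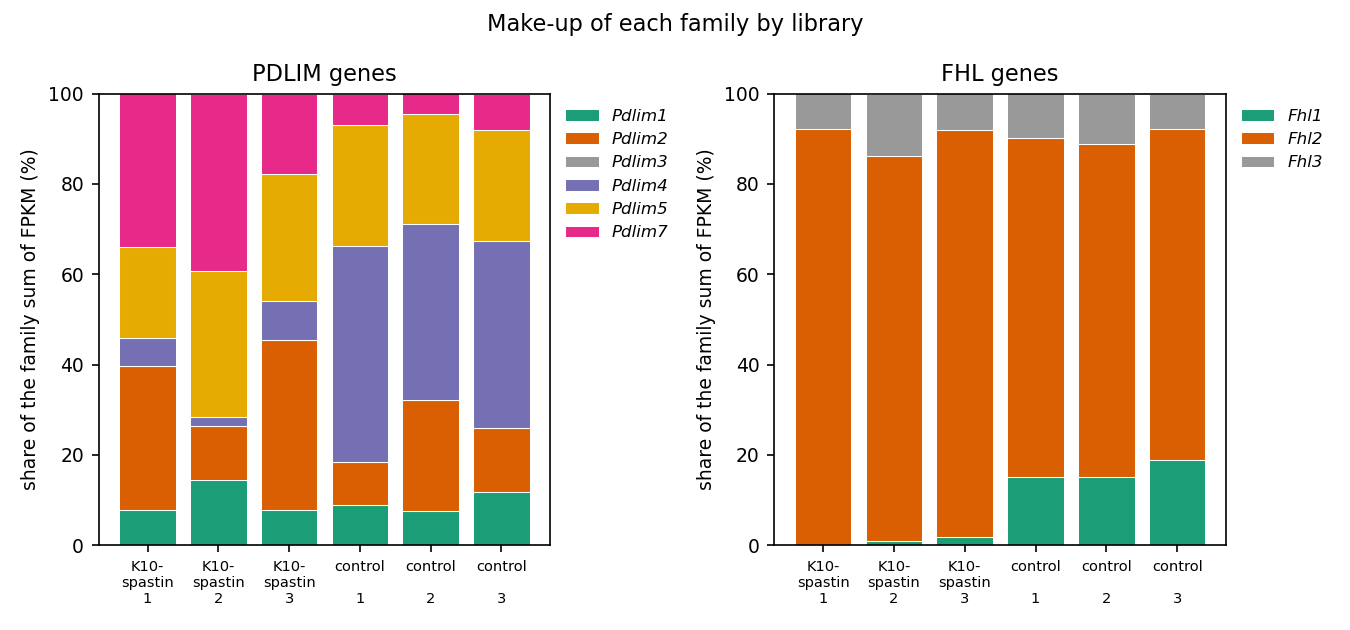
Share of each gene in the summed FPKM of its family, in percent, for the 3 K10-spastin libraries (left) and the 3 control libraries (right) of each panel. Pdlim4 makes up at most 8.70% in K10-spastin libraries, against at least 38.9% in control libraries, and Fhl1 at most 1.84% in K10-spastin libraries, against at least 15.0% in control libraries.

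Members were compared with each other by the root mean square difference of their log2 profiles over the 6 libraries, each set to 0 at its control mean. Pdlim1 and Pdlim5 were closest, at 0.26, both being flat, and Pdlim7 and Fhl2 came next, at 0.29. Pdlim7 and Fhl3 differed by 0.41, Fhl2 and Fhl3 by 0.57, and Pdlim4 and Fhl2 were the farthest apart, at 3.999.

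The same measure was used to find the tested genes most like the member with the largest positive difference and the one with the largest negative difference. Nearest to Fhl2 were Serinc2 at 0.13, Slco4a1 at 0.17 and Klk10 at 0.20. Serinc2 had 43.2, 27.9 and 15.3 FPKM in K10-spastin 1 to 3, against 4.43, 4.02 and 6.30 FPKM in control 1 to 3. Klk10, a kallikrein-related protease of the epidermis, had 139, 79.4 and 34.0 FPKM in K10-spastin, against 13.9, 12.6 and 22.3 FPKM in control, in the same order of libraries within each group as Fhl2.

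Nearest to Pdlim4 were Aldh1a7 at 0.37, Gdpd2 at 0.46 and Slc22a4 at 0.61. Aldh1a7 had 3.77, 0.519 and 5.22 FPKM in K10-spastin 1 to 3, against 33.2, 51.3 and 35.1 FPKM in control 1 to 3. Gdpd2 had 3.01, 1.23 and 3.28 FPKM in K10-spastin, against 26.1, 21.7 and 21.2 FPKM in control. Both share with Pdlim4 the lowest value in K10-spastin 2. These genes were picked for their likeness, so it is a description.

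**Figure D4:**
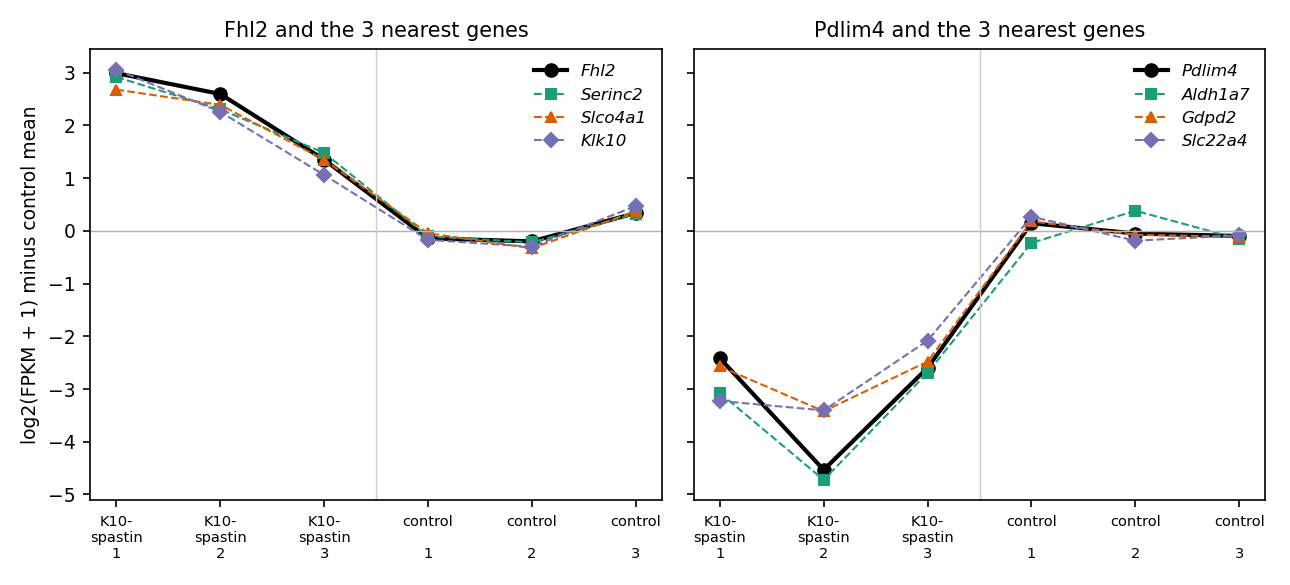
Profiles of Fhl2 (left) and Pdlim4 (right) in black with the 3 nearest genes in colour, as log2(FPKM + 1) minus the control mean, for K10-spastin 1 to 3 and control 1 to 3. The nearest genes of Fhl2 lie within 0.20 of it and those of Pdlim4 within 0.61, as root mean square differences.

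Other LIM genes of the actin cytoskeleton were followed in 4 lists. The lists were chosen with earlier results of these data known, so their counts and medians are a description. Of the 36 genes that the deposited data list, 27 were tested, and 3 rose (11.1%) and 0 fell by limma, against 5.14% and 5.90% of all genes tested. At an unadjusted p under 0.05, 7 were higher and 2 lower, against 12.8% and 18.7% of all genes tested. Their median change was 0.01 on the log2 scale, against -0.09 for all genes tested. The remaining PDLIM and FHL relatives, Ldb3, Fhl4 and Fhl5, were too low to be tested.

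Trip6, a zyxin relative of focal adhesions, rose to 41.2, 57.6 and 44.9 FPKM in K10-spastin 1 to 3, against 31.5, 25.8 and 27.8 FPKM in control 1 to 3 (log2 change 0.72 ± 0.17 SE, limma adjusted p = 0.0377). Lims1, the PINCH adaptor of integrin-linked kinase, rose to 16.9, 16.8 and 14.3 FPKM in K10-spastin, against 7.97, 8.49 and 7.61 FPKM in control (0.91 ± 0.15 SE, limma adjusted p = 0.0171). Lmo7, which is found at adherens junctions, rose to 151, 98.8 and 76.9 FPKM in K10-spastin, against 32.5, 60.5 and 47.4 FPKM in control (1.19 ± 0.30 SE, limma adjusted p = 0.0483). The groups did not overlap for any of the 3. Each call was lost when any 1 of the 3 control libraries was left out, and calls were lost in 7, 4 and 13 of 17 other settings for Trip6, Lims1 and Lmo7, with limma adjusted p up to 0.145, 0.0895 and 0.139.

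The most abundant LIM genes of these lists, Ablim1 and Limk2, overlapped between the groups. Ablim1, an actin-binding LIM protein, averaged 184 ± 36.3 FPKM in K10-spastin and 230 ± 28.2 FPKM in control (SD, n = 3 each), a log2 change of -0.33 ± 0.17 (SE, limma adjusted p = 0.230). Limk2, a kinase that inactivates cofilin, averaged 227 ± 31.3 FPKM in K10-spastin and 259 ± 21.5 FPKM in control (SD, n = 3 each, log2 change -0.20 ± 0.14 SE, limma adjusted p = 0.386). Mical2, an oxidase of actin, had 5.02, 2.52 and 3.36 FPKM in K10-spastin 1 to 3, against 1.23, 1.47 and 1.47 FPKM in control 1 to 3, and missed the threshold (limma adjusted p = 0.0516). Csrp1, a cysteine-rich LIM protein that binds actin bundles, named here after its values were seen, had 132, 129.7 and 91.9 FPKM in K10-spastin, against 24.99, 61.3 and 80.9 FPKM in control, without overlap but not called (log2 difference 1.20 ± 0.40 SE, limma adjusted p = 0.0925).

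**Figure D5:**
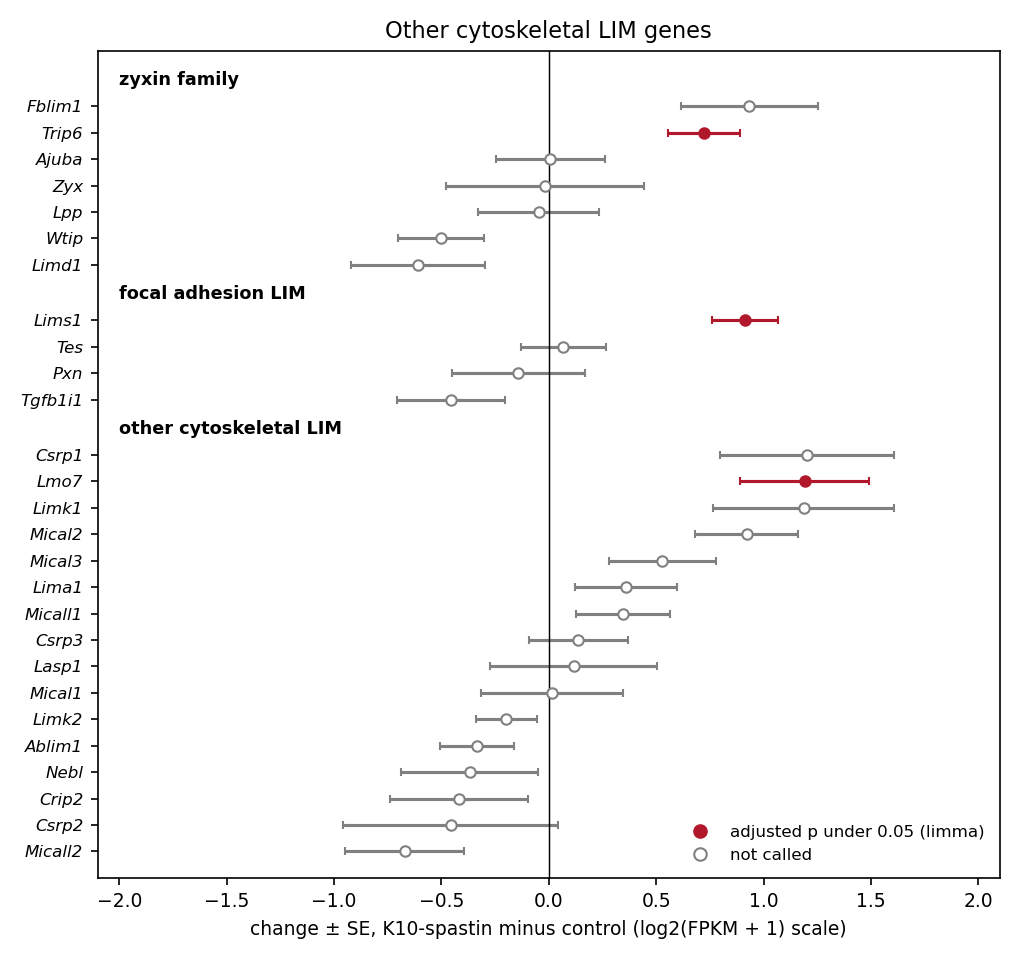
Change of each of the 27 tested cytoskeletal LIM genes outside the 2 families, K10-spastin minus control on the log2(FPKM + 1) scale with its SE, grouped by list. Filled red points are the 3 genes called by limma, Lims1, Trip6 and Lmo7, all of them higher.

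Partners of the members and genes of the SRF pathway were described in the same way, 42 genes in the table and 28 tested. These lists too were chosen with earlier results of these data known. Of the 28, 3 rose (10.7%) and 1 fell (3.57%) by limma, against 5.14% and 5.90% of all genes tested. At an unadjusted p under 0.05, 9 were higher and 3 lower, against 12.8% and 18.7% of all genes tested. Their median change was 0.31, against -0.09 for all genes tested. Among the alpha-actinins and palladin relatives to which PDLIM proteins bind, 0 of 4 tested genes were called by limma. At an unadjusted p under 0.05, 1 of them was higher and 0 lower, beside the same shares of all genes. Actn4, the most abundant, averaged 753 ± 99.2 FPKM in K10-spastin and 673 ± 15.6 FPKM in control (SD, n = 3 each, limma adjusted p = 0.468). Actn1 had 41.7, 26.2 and 10.2 FPKM in K10-spastin 1 to 3, against 9.11, 7.004 and 10.3 FPKM in control 1 to 3, overlapping at K10-spastin 3 (1.28 ± 0.45 SE, limma adjusted p = 0.104).

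Among 6 tested signalling partners, Id2, an inhibitor of basic helix-loop-helix factors that Pdlim5 retains in the cytoplasm, fell to 0.136, 1.21 and 1.04 FPKM in K10-spastin 1 to 3, against 3.12, 3.98 and 4.66 FPKM in control 1 to 3 (log2 change -1.50 ± 0.30 SE, limma adjusted p = 0.0254). The call was lost when any 1 of the 3 controls was left out, with limma adjusted p up to 0.106. Rela, the target of Pdlim2, had 69.1, 66.7 and 50.3 FPKM in K10-spastin, against 33.6, 45.3 and 43.8 FPKM in control, without overlap but not called (0.59 ± 0.18 SE, limma adjusted p = 0.0774). Ctnnb1, the beta-catenin to which Fhl2 binds, had a log2 difference of 0.08 ± 0.14 (SE, limma adjusted p = 0.734), which was -0.06 with quantile normalization.

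Of 13 tested SRF targets 3 rose and 0 fell by limma, against 5.14% and 5.90% of all genes tested. At an unadjusted p under 0.05, 6 were higher and 1 lower, against 12.8% and 18.7% of all genes tested, and the median change of the list was 0.49. Since the list was chosen with earlier results of these data known, these counts are a description and no support for a shared change of SRF targets. Tpm2, the beta-tropomyosin that Pdlim7 binds, rose to 81.3, 79.2 and 28.1 FPKM in K10-spastin 1 to 3, against 3.97, 2.23 and 6.24 FPKM in control 1 to 3 (3.56 ± 0.46 SE, limma adjusted p = 0.00876), and was called in all 17 other settings. Tagln2, a transgelin that binds actin filaments, rose to 164, 215 and 101 FPKM in K10-spastin, against 35.6, 29.6 and 47.6 FPKM in control (2.02 ± 0.29 SE, limma adjusted p = 0.0120), and was not called without control 1 and K10-spastin 1 together (limma adjusted p = 0.0547). The third, Tpm4, another tropomyosin, named here after its values were seen, had 254.6, 233 and 166 FPKM in K10-spastin, against 100.1, 130.4 and 126 FPKM in control, and its call was lost in 10 of 17 other settings. In K10-spastin 3 both Tpm2 and Tagln2 were at their lowest of the group, as Fhl2 and Pdlim7 were.

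Other SRF targets were not called. Actg1, a cytoplasmic actin, had a log2 difference of 0.37 ± 0.25 (SE, limma adjusted p = 0.356) and Actb one of -0.11 ± 0.22 (SE, limma adjusted p = 0.770). Srf itself, also named after its values were seen, had 22.7, 40.5 and 37.6 FPKM in K10-spastin 1 to 3, against 38.1, 75.3 and 86.8 FPKM in control 1 to 3, overlapping at control 1 (limma adjusted p = 0.116), and was called lower in 2 of 17 other settings, array weights and without control 1 and K10-spastin 1 together (limma adjusted p from 0.0194 to 0.317 over the 17). Its cofactors Mrtfa and Mrtfb had log2 differences of 0.28 ± 0.19 (SE, limma adjusted p = 0.348) and -0.51 ± 0.17 (SE, limma adjusted p = 0.0875). Elk3, of the same list, did not overlap between the groups and was not called, at 1.44 ± 0.40 (SE, limma adjusted p = 0.0594). Elk4 had -0.24 ± 0.18 (SE, limma adjusted p = 0.392). Of the 5 cofactors tested, 2 had changes above 0 and 3 below. A CArG box was present in the windows of 5 of the 14 SRF target genes that had a window, Actg1, Cnn2, Myl9, Srf and Vcl. Over all genes it was in 1.64% of distinct windows, a share per window and not per gene. Tpm2, Tagln2 and Tpm4, which rose, had no CArG box in a window or had no window, and Myl9 was too low to be tested.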

How the data were processed

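The members and the gene lists were chosen with earlier results of these data known, and the lists were written from textbook knowledge. The authors deposited FPKM per gene for 6 libraries, and CASAVA and TopHat2 are named, without versions, in the submitters' processing notes. Counting tool, strandedness, build and annotation were not given in the sources used here. Reads of overlapping genes and of near-identical copies may therefore be split. Symbols matched 34490 of 35275 identifiers.

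The 11071 genes whose 6 libraries averaged 1 FPKM or more were tested on log2(FPKM + 1), a scale that shrinks the change of low genes, with limma 3.58.1 in R 4.3.3 (lmFit and eBayes with trend, two-sided, Benjamini-Hochberg). Each SE of a log2 change is that of limma, whose variance for a gene also draws on the other genes tested. No block was used. The fit was tested on simulated data. The named genes are all members, Spast, and from each list up to 2 tested genes with the smallest p and 2 with the highest mean; not all of these are reported here. For the members with the largest positive and negative difference, the 3 nearest genes by profile are named. Tpm4, Srf, Csrp1, Itga6, Itgb4, Flg2, Krtdap, Sbsn, Dsg1a, Dsc1, Col1a2, Col3a1 and the neighbouring genes were named after their values were seen. Gm13898 was named for its likeness in sequence to Fhl3.

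When libraries were left out, the genes tested were kept as those that passed over all 6. The filter had first been reapplied to the remaining libraries, and this was changed after those values were seen. Both are reported. Depth came from the steps of the low values with exon lengths of GENCODE M21. Between 90.6% and 91.5% of values up to 20 fragments were whole within 0.05. Near-identical copies were searched with BLAST 2.17.0 at 90% identity over 200 bases. Scripts ran in Python 3.11.15 with matplotlib 3.10.9, pandas 2.3.3 and numpy 2.4.6.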

Additional observations from a re-analysis of the deposited data

How the results depend on the processing

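The differences of the 8 tested members moved by less than 1 SD between libraries in 131 of 134 values over 17 alternatives, and none of the called ones changed sign. The exceptions were Pdlim5 under median-of-ratios scaling (0.00) and Fhl1 with pseudocounts of 0.1 (-2.36) and 0.5 (-1.61). Many of the 134 values could not have moved that far, so their number is no measure of stability. Leaving out 1 of the 3 libraries of a group cannot shift a difference by 1 SD. The filters, no trend, robust variances and the replicate block leave a difference as it is. Pdlim2, at 0.53 as reported and -0.22 without control 1 and K10-spastin 1 together, still counted as within 1 SD. The calls varied with the setting. No member was called when any 1 of the 3 controls was left out. Fhl1 was also lost when any K10-spastin library was left out, with a pseudocount of 0.1, no filter and the replicate block. Fhl3 was called as well with a pseudocount of 0.1, quantile normalization and without K10-spastin 3. Members called higher numbered 1 with no filter, 0 without control 1 and K10-spastin 1 together, and 0 to 3 with 1 library left out. Members called lower numbered 1 with a pseudocount of 0.1, with no filter, with a filter at 5 FPKM, with the replicate block and without that pair, and 0 to 1 with 1 library left out.

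Over all genes, those called higher numbered 319 with no filter, 1535 with array weights, 274 with the replicate block and 113 to 691 with 1 library left out. Those called lower numbered 348 with no filter, 414 with a filter at 5 FPKM, 1771 with array weights, 218 with the replicate block and 32 to 701 with 1 library left out. Other LIM genes called higher numbered 1 with no filter, 0 with the replicate block and 0 to 4 with 1 library left out, and those called lower 2 with array weights. In the partner and SRF lists, 5 were called higher with array weights, 1 without the pair and 1 to 8 with 1 library left out, while 0 were called lower with a pseudocount of 0.1, no filter and the 5 FPKM filter, 4 with array weights, 2 without the pair and 0 to 1 with 1 library left out. The cause of these changes was not tested.

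Reapplying the filter to the libraries that remained, an alternative added after the data were seen, gave 7 further fits, with 114 to 687 genes called higher and 31 to 707 called lower when 1 library was left out. It moved 1 named call: without control 2, Tagln2 had a limma adjusted p of 0.051, against 0.0499 with the genes kept. Deviations of same-numbered libraries from their group means had correlations of -0.128, -0.378 and -0.0471, so no pairing by number was seen. With 3 libraries in each group, these values cannot show whether the samples were collected in pairs. The block result is given only here. Median-of-ratios scaling put the median of all tested genes at 0.01, against -0.09 as deposited. Depth limits Pdlim3, and Fhl1 in K10-spastin 1.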

Other observations

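The tested genes nearest to Pdlim4 and Pdlim7 on the chromosome were looked up in GENCODE M21 (GRCm38) after their values had been seen. Slc22a4, which lies 26.8 kb from Pdlim4 and is also among the 3 genes with the most similar profile, had 4.29, 3.67 and 10.7 FPKM in K10-spastin 1 to 3, against 58.7, 42.5 and 45.7 FPKM in control 1 to 3, a log2 difference of -2.90 ± 0.35 (SE). P4ha2, a collagen prolyl hydroxylase 31.1 kb away on the other side of Pdlim4, had 55.9, 49.97 and 38.5 FPKM in K10-spastin, against 61.8, 66.8 and 68.9 FPKM in control, a log2 difference of -0.46 ± 0.16 (SE). Both neighbours of Pdlim4 were thus lower in every K10-spastin library, Slc22a4 by far more than P4ha2.

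Beside Pdlim7, the neighbour Dbn1, the actin-binding protein drebrin, 7.7 kb away, stood on the other side, with 0.264, 1.00 and 0.377 FPKM in K10-spastin 1 to 3, against 1.6, 1.55 and 2.65 FPKM in control 1 to 3. Its log2 difference was -0.93 ± 0.26 (SE), while that of Pdlim7 was 1.94 ± 0.39 (SE). Near Fhl2 and Fhl3, AI597479 and Utp11 had log2 differences of 0.03 ± 0.26 (SE) and 0.01 ± 0.17 (SE). No test of a shared chromosomal change was made.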
